A study of Mus musculus with 6 samples.

Results

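Connexins are the proteins of gap junctions, and the connexin genes described here are Gja1, Gjb2, Gjb6, Gjc1, Gjc3 and Gjd2. These 6 genes were found by symbol among the 39179 genes of a mouse count table. The table lists 20 connexin genes, and the 6 are those that had enough counts to pass the low-count filter of the test described here. They were chosen by their count level and with the measured G392E-NS over GFP differences known, so their values are a description of these libraries, and the adjusted p-values given for them place each gene among all 13775 genes tested without adding independent support. RNA came from differentiated cultures of neural progenitor cells, which had been taken at E13.5 from the cerebral cortex of CD1 mouse embryos. The progenitors stably overexpressed either green fluorescent protein (GFP, 3 libraries) or neuroserpin carrying the variant G392E (G392E-NS, 3 libraries). Neuroserpin is a protease inhibitor of neurons, and its G392E variant forms polymers in the endoplasmic reticulum and causes the dementia FENIB. The labels name neither the promoter that drives the transgenes nor the number of clones or cultures behind each group, and both groups passed through the same differentiation.

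Connexin proteins assemble into hemichannels in the plasma membrane, and hemichannels of neighbouring cells dock to form a gap junction that passes ions and small metabolites. Gja1, Gjb6 and Gjb2 encode connexins 43, 30 and 26, the connexins of astrocytes, which couple these cells into a network that spreads potassium, glutamate and calcium signals. Gjc3 encodes connexin 29 of oligodendrocytes and Schwann cells, Gjd2 encodes connexin 36, which forms the electrical synapses of neurons, and Gjc1 encodes connexin 45, found in the developing brain, in some neurons and in vascular muscle.

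Docking rests on the extracellular loops, whose cysteines hold the loops in shape. The coding stretch of the first loop is shown for all 6 genes to make visible how much of this family is shared. Each is written 5′ to 3′ from the GENCODE M21 transcript (GRCm38), with the 3 cysteine codons in capitals.
Gja1: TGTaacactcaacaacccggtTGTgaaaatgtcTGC
Gjb2: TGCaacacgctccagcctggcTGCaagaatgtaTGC
Gjb6: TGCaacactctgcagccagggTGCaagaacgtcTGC
Gjc1: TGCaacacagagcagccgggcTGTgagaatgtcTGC
Gjc3: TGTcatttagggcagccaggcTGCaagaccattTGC
Gjd2: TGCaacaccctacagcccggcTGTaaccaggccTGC
All 6 coding sequences hold this spacing of cysteine codons at 1 in-frame position, within 36 bases. The bases between these codons differ among the genes. Identity was taken over whole coding sequences, so the stretch was not compared with the rest. Gjb2 and Gjb6 were the most alike pair, with 76.2% identity over 681 aligned coding bases and a longest shared run of 20 bases. Gjb6 and Gjc3 were the least alike, at 54.8% identity and a longest shared run of 9 bases. No pair of the 6 coding sequences shared a run of more than 20 bases.

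The libraries held 15507487 to 24835835 counts. The groups differed by more than the transgene named in the labels: Xist, the RNA that silences an X chromosome in female cells, had 1.51 ± 0.0831 CPM (counts scaled to library size and between libraries; mean ± SD, n = 3) in GFP libraries against 1494 ± 345 CPM in G392E-NS libraries. A difference between the source cultures and an effect of the variant cannot be told apart in any result that follows. Serpini1, the mouse neuroserpin gene, had 4.69 ± 0.483 CPM in GFP libraries against 5.72 ± 0.924 CPM in G392E-NS libraries, and the species of the introduced sequence is not given in the sources used here, so this value does not check the construct. Nothing in the labels says that replicates came from separate cultures, so p-values measure the spread between these libraries, which may be technical. In bulk RNA, more cells of a type and more RNA per cell cannot be told apart.

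Gene against gene, levels were compared as CPM per kilobase of the joined exons of each gene. Gja1 and Gjd2 were the leading connexins, at 24.99 ± 12.6 and 20.4 ± 3.39 CPM per kb in GFP libraries, and did not differ beyond their spread. Gjc1 followed at 6.27 ± 0.180, then Gjc3 at 1.96 ± 0.369, and Gjb6 and Gjb2 closed the order at 0.193 ± 0.124 and 0.122 ± 0.116 CPM per kb, within each other's spread. In G392E-NS libraries the order was Gja1 at 64.1 ± 37.6, Gjd2 at 24.9 ± 5.96, Gjc1 at 4.09 ± 0.482, Gjb6 at 2.57 ± 1.10, Gjc3 at 1.20 ± 0.0604 and Gjb2 at 0.418 ± 0.188 CPM per kb. Gjb6 thus stood after Gjc3 in the GFP order and before it in the G392E-NS order. The joined exons of Gja1 reach 10.257 kb and combine 8 annotated transcripts, while its longest single transcript has 3889 bases. With the longest transcript as the length, Gja1 had 65.9 ± 33.1 and 169 ± 99.1 CPM per kb in the 2 groups, above Gjd2 in all 6 libraries, at ratios of 2.13 to 4.25 in GFP libraries against 3.12 to 11.0 in G392E-NS libraries. With the joined exons that ratio was 0.807 to 1.61 and 1.18 to 4.16, below 1 in GFP replicate 2.

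**Figure D1:**
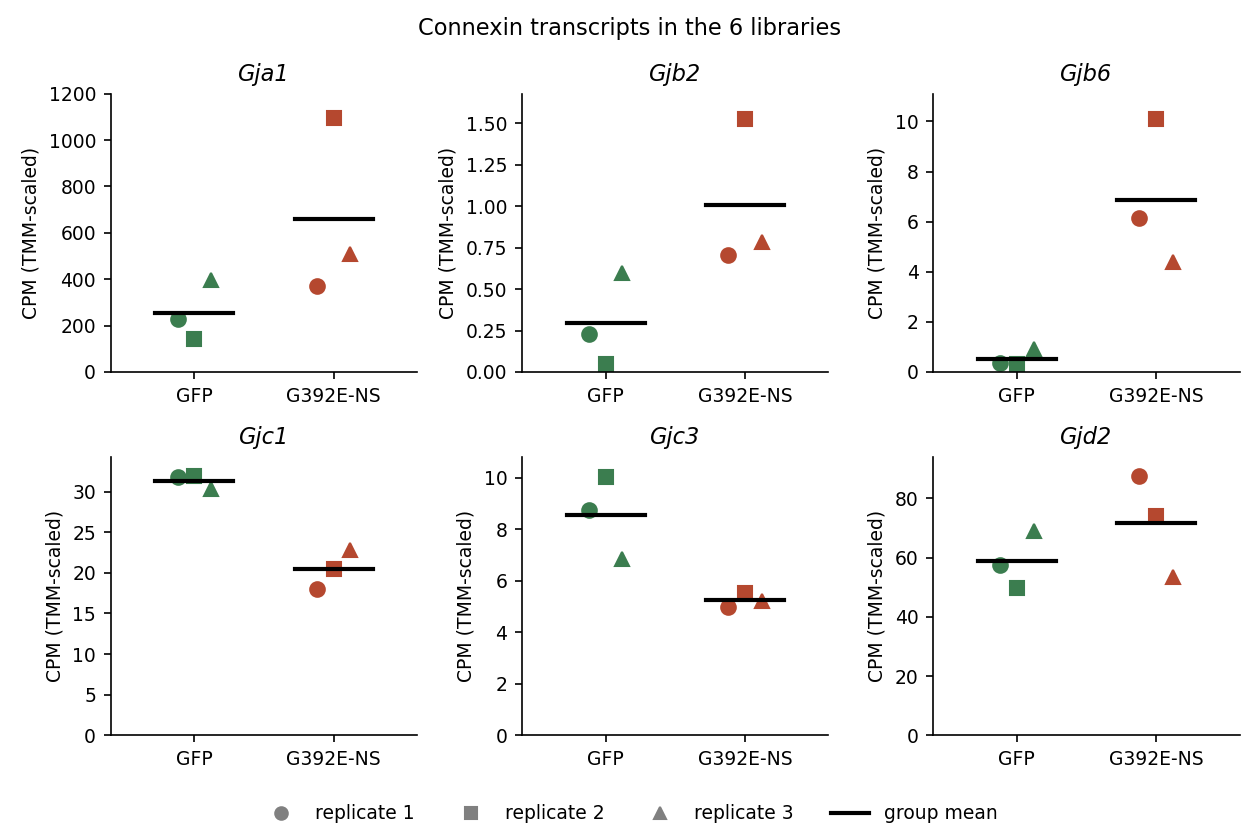
Level of each connexin transcript in CPM, scaled between libraries, for 3 GFP and 3 G392E-NS libraries; each point is a library, its shape the replicate number, and the bar the group mean. Gjb6 in G392E-NS libraries lies between 4.37 and 10.1 CPM, above every GFP library, while Gjc1 and Gjc3 in G392E-NS libraries lie below every GFP library and the groups overlap for Gja1 and Gjd2.

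Among the 6 genes, Gjb6 rose and Gjc1 fell with G392E-NS. The threshold was 0.05 for the p that edgeR's quasi-likelihood test gave after adjustment over all genes tested, and the other 4 did not pass. Over all genes tested, 6.15% were called, 4.79% higher and 1.36% lower. The groups did not overlap for 4 of the 6, which were Gjb2, Gjb6, Gjc1 and Gjc3, against 28.6% of all genes tested. Since these genes were named with this comparison known, nothing is read from either share.

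Gjb6 (ENSMUSG00000040055, GRCm38 chromosome 14, 57123303 to 57133611) encodes connexin 30, an astrocyte connexin that appears after Gja1 as astrocytes mature. It had 0.346, 0.301 and 0.898 CPM in GFP replicates 1 to 3 and 6.15, 10.1 and 4.37 CPM in G392E-NS replicates 1 to 3. The lowest G392E-NS library lay well above the highest GFP library. These levels rest on 6, 6 and 21 counts in GFP libraries against 148, 238 and 67 counts in G392E-NS libraries. The means were 0.515 ± 0.333 and 6.87 ± 2.93 CPM (SD, n = 3 each), a 12.8-fold rise (log2 fold change 3.68, SE 0.47, adjusted p = 0.00485 by edgeR). Gjb6 reached the filter's minimum of 0.471 CPM in 1 GFP library and in all 3 G392E-NS libraries, so it entered the test through the group where it was high. It passed under each of the 14 alternative settings, left-out libraries included, with log2 fold changes of 3.30 to 4.398 and adjusted p of 2.31e-12 to 0.0415. Without GFP replicate 3, the GFP library with the most Gjb6, the log2 fold change was 4.398.

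Gja1 (ENSMUSG00000050953, chromosome 10, 56377330 to 56402513) encodes connexin 43, the main connexin of astrocytes and of radial glia. It had 229.5, 143.0 and 396 CPM in GFP replicates 1 to 3 and 369.8, 1096 and 508 CPM in G392E-NS replicates 1 to 3. The groups overlapped, since GFP replicate 3 lay above G392E-NS replicate 1, and G392E-NS replicate 2 stood far above the other 5 libraries. Within a group the highest library exceeded the lowest 2.77-fold in GFP libraries against 2.96-fold in G392E-NS. The means were 256 ± 129 and 658 ± 385 CPM, and the log2 fold change was 1.36 (SE 0.46), which did not pass (adjusted p = 0.133 by edgeR). That value was 0.78 without G392E-NS replicate 2 and 1.82 without GFP replicate 3. With no low-count filter in the edgeR fit it was 1.33 and passed, at an adjusted p of 0.00828. That was the only 1 of the 14 settings where Gja1 passed. The adjusted p was 0.188 by DESeq2 and 0.138 by limma-voom.

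Gjb2 (ENSMUSG00000046352, chromosome 14, 57098600 to 57104702) encodes connexin 26, known from the inner ear, from the leptomeninges and, at low level, from astrocytes. It was scarce in all 6 libraries, with 4, 1 and 14 counts in GFP replicates 1 to 3 and 17, 36 and 12 counts in G392E-NS replicates 1 to 3. In CPM these were 0.230, 0.0502 and 0.599 against 0.707, 1.53 and 0.783, so the groups were apart by a narrow margin. Like Gjb6, Gjb2 reached the filter's minimum of 0.471 CPM in 1 GFP library and in all 3 G392E-NS libraries. It therefore entered the test through the group where it was high. The log2 fold change was 1.71 (SE 0.63, adjusted p = 0.159 by edgeR) and did not pass. Leaving out a library moved it from 1.23 without GFP replicate 2 to 2.86 without GFP replicate 3, with adjusted p of 0.0722 to 0.396 over the 6 such fits.

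GFP replicate 3 had the highest and GFP replicate 2 the lowest level of Gja1, Gjb2 and Gjb6 within their group, and G392E-NS replicate 2 the highest in its own. The ratio of Gjb6 to Gja1 differed between the groups without overlap. Per kilobase of joined exons, Gja1 exceeded Gjb6 173-, 124- and 115-fold in GFP replicates 1 to 3. In G392E-NS replicates 1 to 3 it did so 15.7-, 28.3- and 30.3-fold. Gjb6 to Gjb2, in the same terms, was 1.35, 5.40 and 1.35 in GFP libraries against 7.83, 5.95 and 5.02 in G392E-NS libraries. The GFP values of this ratio rest on few counts. With the longest transcript as length, Gja1 exceeded Gjb6 239- to 359-fold in GFP libraries against 32.5- to 63.0-fold in G392E-NS libraries.

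Gjb2 and Gjb6 are also neighbours on chromosome 14, on the same strand and 18.6 kb apart, with no tested gene between them. The tested genes that flank the pair were Zmym2, 136 kb away (log2 fold change −0.33, adjusted p = 0.132), and Cryl1, 141 kb away (0.03, adjusted p = 0.951), and neither passed. Gja3, another connexin gene of this stretch of chromosome 14, had no counts in any library. Since the 3 astrocyte connexins had the highest fold changes of the 6, the 150 bases before their start sites are shown, from the RefSeq promoter table of build GRCm38.p6, 5′ to 3′ on the gene's strand. RefSeq gave such an entry for 5 of the 6 genes. Capitals mark matches to any of 5 motifs searched on both strands: AP-1 (TGANTCA), the TATA box (TATAAA), the GC box (GGGCGG), the core of the antioxidant response element (TGACNNNGC) and the left part of the neuronal repressor element RE1 (TTCAGCACC).
Gja1, chr10:56377150-56377299, + strand: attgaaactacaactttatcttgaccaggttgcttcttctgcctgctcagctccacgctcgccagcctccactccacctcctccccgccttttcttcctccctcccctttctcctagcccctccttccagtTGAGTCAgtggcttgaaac
Gjb2, chr14:57104703-57104852, - strand: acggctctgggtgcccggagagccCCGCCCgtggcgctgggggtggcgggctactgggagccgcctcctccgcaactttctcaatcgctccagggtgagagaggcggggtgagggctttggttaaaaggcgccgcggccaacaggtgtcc
Gjb6, chr14:57133612-57133761, - strand: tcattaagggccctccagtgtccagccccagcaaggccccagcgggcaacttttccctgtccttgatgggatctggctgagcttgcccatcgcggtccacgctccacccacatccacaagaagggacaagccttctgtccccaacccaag
Gja1 held an AP-1 match 19 to 13 bases before its start, which 4.27% of 27025 promoters held in a window of this length. Gjb2 held a GC box match, as did 29.0% of promoters, and the Gjb6 window held no match to the 5 motifs. The Gjd2 window held a GC box match and that of Gjc3 none. TATA box, antioxidant element core and RE1 letters were in none of the 5 windows, against 8.08%, 6.82% and 0.141% of all promoters. GC content was 54.7%, 69.3% and 60.7% for Gja1, Gjb2 and Gjb6, 47.3% for Gjc3 and 76.7% for Gjd2, against a median of 54.0%. These matches describe letters and no binding was measured.

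Gjc1 (ENSMUSG00000034520, chromosome 11, 102799579 to 102819700), the connexin 45 gene, was the steadiest of the 6 within the GFP group. It had 31.8, 32.0 and 30.3 CPM in GFP replicates 1 to 3 and 18.003, 20.5 and 22.8 CPM in G392E-NS replicates 1 to 3. All G392E-NS libraries lay below all GFP libraries. The means were 31.4 ± 0.901 and 20.4 ± 2.41 CPM, and Gjc1 fell by 0.62 on the log2 scale (1.54-fold, SE 0.12, adjusted p = 0.0215 by edgeR). The direction held with each library left out, from −0.70 to −0.55, but the call was lost when any of the 3 GFP libraries or G392E-NS replicate 2 was left out, with, in that order, adjusted p of 0.100, 0.103, 0.0528 and 0.0574. DESeq2 and limma-voom both called it, at adjusted p of 0.000362 and 0.0224.

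Gjc3 (ENSMUSG00000056966, chromosome 5, 137953461 to 137963098), the connexin 29 gene of myelin-forming cells, had 8.75, 10.04 and 6.84 CPM in GFP replicates 1 to 3 and 4.99, 5.51 and 5.22 CPM in G392E-NS replicates 1 to 3. The groups did not overlap, and the G392E-NS libraries were close together. The log2 fold change was −0.70 (SE 0.19) and did not pass (adjusted p = 0.0685 by edgeR). Gjc3 passed when DESeq2 was used (adjusted p = 0.0210) or when genes were not filtered in edgeR (0.0350), in 2 of the 14 settings. Markers of the oligodendrocyte lineage did not share this direction: of 18, 12 were tested, 3 rose and none fell. The 3 were the precursor receptor gene Pdgfra (log2 fold change 1.12, adjusted p = 0.0435), the transcription factor gene Nkx2-2 (3.96, 0.0303) and the myelin gene Mog (2.25, 0.0295), of which Nkx2-2 and Mog were at 1.61 ± 1.14 and 1.02 ± 0.410 CPM in G392E-NS libraries. The calls of Pdgfra, Mog and Nkx2-2 were lost in 4, 4 and 3 of the 6 fits that left out a library. Summed over the 18 markers, levels were 3821 to 4471 CPM in GFP libraries against 3602 to 5808 CPM in G392E-NS libraries. Gjc3 made up 0.158% to 0.229% of that sum in GFP libraries against 0.0898% to 0.153% in G392E-NS libraries. Abundant genes carry much of that sum, such as Olig1 at 3026 of 5808 CPM in G392E-NS replicate 3.

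Gjd2 (ENSMUSG00000068615, chromosome 2, 114009601 to 114013619), the connexin 36 gene of electrical synapses, had 57.4, 49.7 and 69.1 CPM in GFP replicates 1 to 3 and 87.6, 73.9 and 53.5 CPM in G392E-NS replicates 1 to 3. G392E-NS replicate 3 lay within the range of the GFP libraries. The means were 58.7 ± 9.77 and 71.7 ± 17.2 CPM, and the log2 fold change was 0.29 (SE 0.19; adjusted p = 0.406 by edgeR). It did not pass in any of the 14 settings, where the values ran from 0.10 to 0.46. Exons of A530058N18Rik, on the other strand, overlap those of Gjd2 by 57 bases in 1 gene model and 18 in another, and as the strand setting of the counting is not given, reads there cannot be assigned. The 2 models held 761 and 2 counts in all, against 8275 for Gjd2. Of 16 neuronal markers 11 were tested: the growth cone gene Gap43 rose by 1.11, while Elavl4, which encodes a neuronal RNA-binding protein, and Gad1, which encodes a GABA-synthesising enzyme, fell by 0.70 and 0.65. Their adjusted p were 0.00585, 0.0228 and 0.00854, and the call of Elavl4 was lost in 5 and that of Gad1 in 2 of the 6 fits without a library. Summed neuronal markers were 3561 to 4089 CPM in GFP libraries against 3283 to 4524 CPM in G392E-NS libraries, ranges that overlap as those of Gjd2 do. Slc17a6 and Slc17a7, which define excitatory neurons, were at or near 0, with at most 0.127 CPM in any library. Stmn2, Nefl and Gad2, which like Gad1 encodes a GABA-synthesising enzyme, also stayed below the low-count filter.

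**Figure D2:**
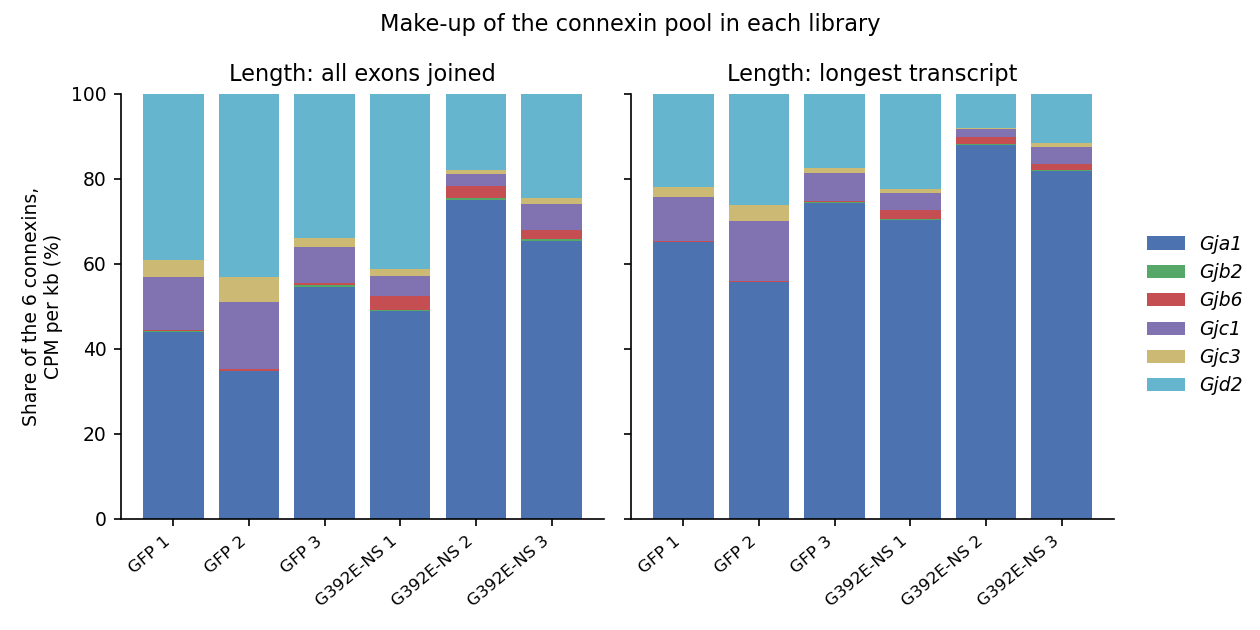
Share of each connexin in the summed level of the 6 (percent of CPM per kb) in each library, with gene length taken as all exons joined (left) or as the longest transcript (right). Gja1 makes up 34.8% to 54.5% of the pool in GFP libraries against 48.8% to 75.1% in G392E-NS libraries on the left, and 55.6% to 74.3% and 70.3% to 88.0% on the right.

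As a pool, the 6 connexins summed to 50.9, 40.04 and 70.9 CPM per kb in GFP replicates 1 to 3 and 73.8, 142 and 75.9 in G392E-NS replicates 1 to 3. With joined exons as length the G392E-NS sums all lay above the GFP sums, by little for the highest GFP library. With the longest transcript as length the groups overlapped, at 90.7, 66.1 and 137 CPM per kb in GFP replicates 1 to 3 and 135, 320.2 and 159.7 in G392E-NS replicates 1 to 3. Gja1 made up 44.4% ± 9.87 of the pool in GFP libraries against 63.1% ± 13.3 in G392E-NS libraries, ranges that overlap. Gjd2 made up 38.7% ± 4.65 and 27.9% ± 11.96, and overlapped too. The share of Gjb6 went from 0.336% ± 0.120 to 2.64% ± 0.482, that of Gjc1 from 12.3% ± 3.71 to 4.59% ± 1.59 and that of Gjc3 from 3.97% ± 1.77 to 1.34% ± 0.390, each without overlap. The share of Gjb2, which rests on few counts, went from 0.197% ± 0.150 to 0.424% ± 0.0244, also without overlap. Shares depend on each other, so a larger part for Gja1 leaves less for the others together. Gjc1 and Gjc3 kept a like proportion to each other, with 2.77 to 3.86 times as much Gjc1 per kb in GFP libraries against 3.14 to 3.81 times in G392E-NS libraries. With the longest transcript as length, Gja1 made up 65.0% ± 9.33 and 80.0% ± 8.98, ranges that again overlap.

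The other 14 connexin genes all stayed below the filter, and 3 of them, Gja3 and Gjb5 included, had no counts, which over the 6 libraries allows up to 0.0243 CPM (3 counts). Those with at least 10 counts in all included Gja6, Gje1 and Gja5. Gja6, an X-linked mouse connexin gene, had 5, 2 and 6 counts in GFP libraries against 14, 9 and 4 in G392E-NS libraries. Gja5, the connexin gene of endothelium and heart, whose exons overlap those of Gpr89 on the other strand by 165 bases, had 4, 6 and 5 counts in GFP libraries against 3, 0 and 1 in G392E-NS libraries. Gje1 had 24 counts in all. Just inside the filter stood Gjb2, with 84 counts in all, while Gja6, outside it, had 40 counts. In an edgeR fit with no low-count filter, 11 of these 14 genes were tested, none passed and 2 had an unadjusted p under 0.05, with a smallest adjusted p of 0.237 for Gja5.

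**Figure D3:**
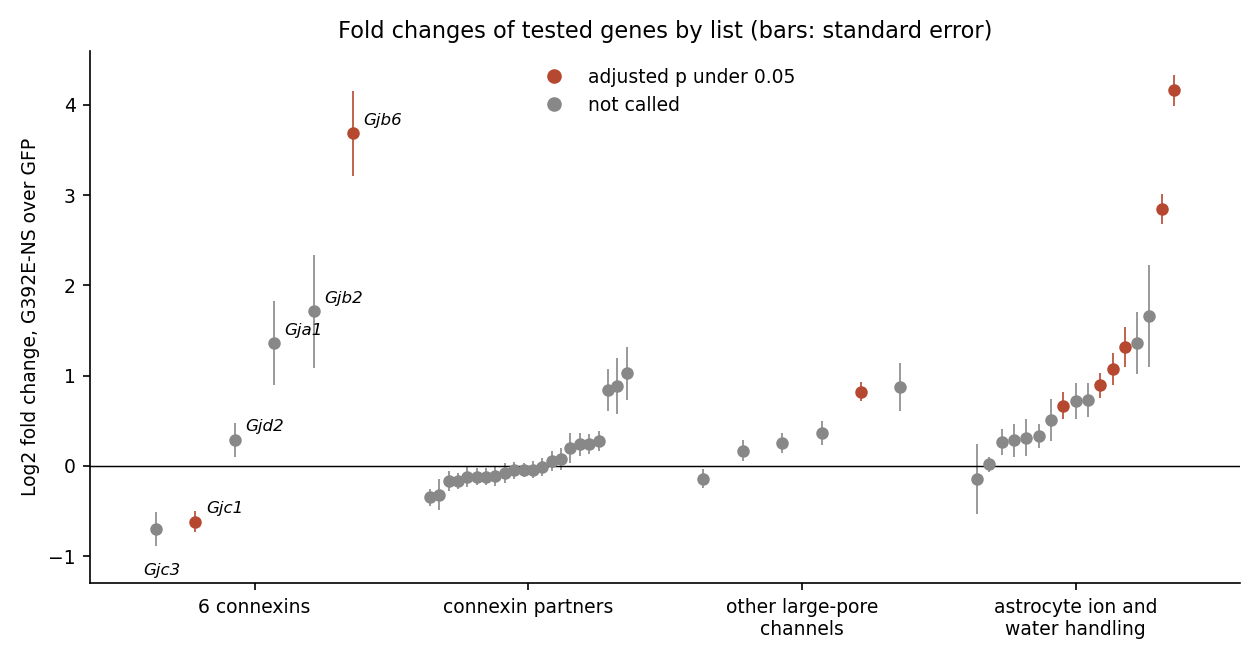
Log2 fold change of G392E-NS over GFP, with its standard error, for tested genes of 4 lists: the 6 connexins, 22 connexin partners, 6 other large-pore channel genes and 17 astrocyte ion and water handling genes; red points have an adjusted p under 0.05. No connexin partner is red, 6 of the 17 astrocyte genes are, and Gjb6 at 3.68 lies above all but Kcnj10 at 4.16.

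Genes whose products carry, anchor, modify or degrade connexins did not pass. Of 24 listed partners 22 were tested and none was called by edgeR, with 5 at an unadjusted p under 0.05, a median log2 fold change of −0.04 and a range of −0.35 to 1.02. Over all genes tested the median was −0.0047. Nearest to the threshold was Ubqln4, linked to the degradation of connexin 43, at −0.35 on the log2 scale (SE 0.10, adjusted p = 0.0738). DESeq2 called 3 of the 22, with Ubqln4 lower and Cav1 higher among them, limma-voom called none, and edgeR without G392E-NS replicate 1 called 2. Tjp1, which encodes the ZO-1 scaffold that binds the tail of connexin 43, had 290 ± 18.4 CPM in GFP libraries against 280 ± 15.3 CPM in G392E-NS libraries (log2 fold change −0.05, adjusted p = 0.799). Cdh2, the N-cadherin gene of the adherens junctions beside which gap junctions form, had 318 ± 12.4 and 293 ± 20.6 CPM (−0.12, adjusted p = 0.499). Tjp1 and Cdh2 were chosen after their values were seen.

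Of 13 other genes of large-pore channels, 6 were tested, 1 rose and none fell, with a median log2 fold change of 0.31. The gene that rose was Lrrc8b, a subunit of the volume-regulated anion channel, at 27.3, 25.7 and 30.0 CPM in GFP libraries against 49.9, 51.9 and 45.1 CPM in G392E-NS libraries (log2 fold change 0.82, SE 0.10, adjusted p = 0.00464). It kept its call in all 14 settings. Panx1, the pannexin often measured beside connexin hemichannels and chosen after its values were seen, had 69.6 ± 2.75 and 63.1 ± 6.87 CPM (−0.14, adjusted p = 0.456). Panx3, Calhm1, Calhm3 and Calhm6 had no counts.

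Genes that work beside astrocyte gap junctions in clearing potassium, glutamate and water had 6 of 17 called, all higher, with a median log2 fold change of 0.72. This list shares 6 genes with the astrocyte markers described further on, and 2 of the shared genes, Hepacam and Slc1a2, are among the calls of both. Kcnj10, the potassium channel gene of astrocytes, had 8.75, 9.54 and 8.94 CPM in GFP libraries against 169, 127 and 191 CPM in G392E-NS libraries (log2 fold change 4.16, SE 0.17, adjusted p = 3.12e-05). Hepacam, whose product GlialCAM sits at astrocyte junctions, rose by 2.85 (adjusted p = 0.000153). Slc4a4, a bicarbonate transporter gene, rose by 1.07 (0.0132) and Atp1b2, a sodium pump subunit gene, by 0.89 (0.0106). Kcnj10 and Hepacam kept their calls in all 14 settings. Slc1a2, a glutamate transporter gene, also rose, by 1.32 (0.0144), a call lost without GFP replicate 2 (0.0638) or GFP replicate 3 (0.0517). The call of Atp1b2 was lost without GFP replicate 2 (0.0564), and that of Slc4a4 held with each library left out. Without GFP replicate 2, 3 of the 17 were called, and with no low-count filter 10. The water channel gene Aqp4 had a log2 fold change of −0.14 (adjusted p = 0.861) and was the only member of this list below 0.

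Of 15 astrocyte markers, all tested, 8 rose, none fell and 7 were not called, with a median log2 fold change of 1.36. Of the 8 calls, 3 held whichever library was left out and 5 were lost in 2 to 4 of the 6 such fits. Leaving out GFP replicate 1, 2 or 3 ended 4, 5 and 2 of these calls, respectively, and leaving out G392E-NS replicate 3 ended 2. Their summed level was 8972, 7083 and 9517 CPM in GFP replicates 1 to 3 and 15476, 27472 and 20362 CPM in G392E-NS replicates 1 to 3. GFP replicate 2 was the lowest and GFP replicate 3 the highest of its group, and G392E-NS replicate 2 was the highest of all, as for Gja1, Gjb2 and Gjb6. Of the single markers, 7 of 15 had this order in all 3 respects. Gja1 made up 2.02% to 4.17% of the marker sum in GFP libraries against 2.39% to 3.99% in G392E-NS libraries, ranges that overlap. Gjb6 made up 0.00385% to 0.00944% in GFP libraries against 0.0215% to 0.0398% in G392E-NS libraries, which do not overlap. Abundant markers carry much of this sum, such as Apoe at 6981 of 20362 CPM in G392E-NS replicate 3. Both shares therefore depend on those genes and do not measure astrocyte content. The part of the astrocyte markers in the connexin differences was not tested. Gfap, an astrocyte marker, was at 0.403, 0.0502 and 0.642 CPM in GFP libraries against 2.99, 26.2 and 2.15 CPM in G392E-NS libraries. The edgeR test left Gfap uncalled, with an adjusted p of 0.0511 for a rise of 4.79 on the log2 scale (SE 1.16). Within the G392E-NS group, replicate 2 exceeded the lowest library 12.2-fold. Aqp4, another of the markers, went the other way, at −0.14 (adjusted p = 0.861). Like Tjp1 and Cdh2, Gfap was chosen after its values were seen.

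**Figure D4:**
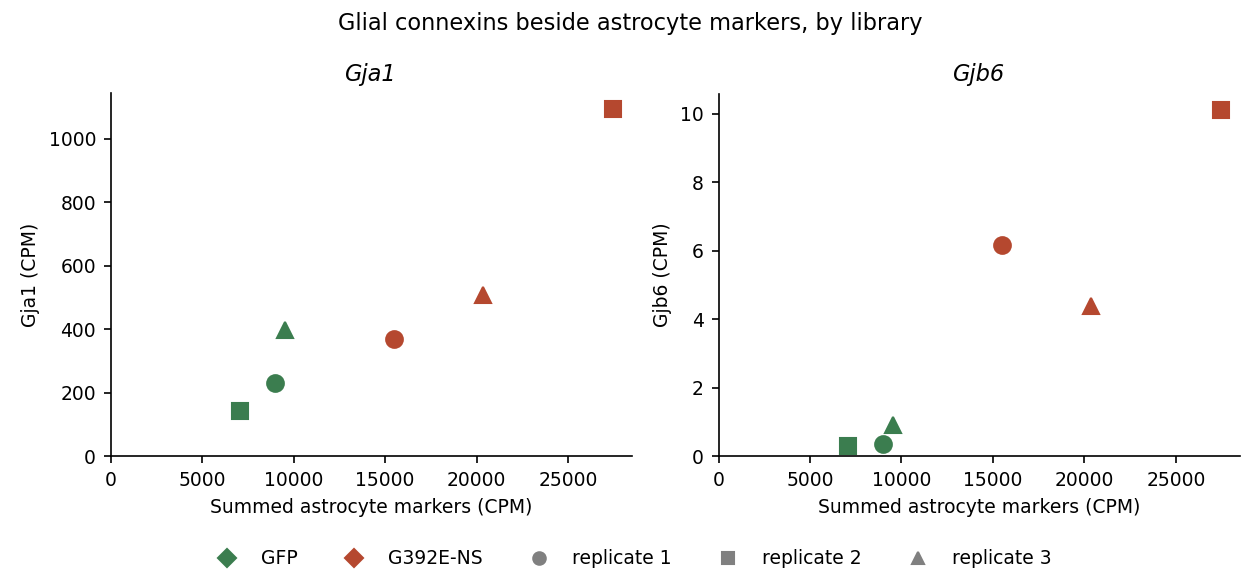
Gja1 (left) and Gjb6 (right) in CPM against the summed CPM of 15 astrocyte markers; each point is a library, coloured by group and shaped by replicate number. G392E-NS replicate 2 lies highest on both axes, and the Gjb6 values of the GFP libraries all lie under 1 CPM.

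Markers of other cell types were examined as well. Of 12 meningeal fibroblast markers, where Gjb2 is typical, 2 were tested and 1 was called. It was Twist1, with no counts in GFP libraries against 129 in G392E-NS libraries, at least 41.4-fold higher when the whole GFP group is set to a floor of 3 counts. The summed list, Twist1 included, was at 2.57 to 3.81 CPM in GFP libraries against 6.59 to 7.76 CPM in G392E-NS libraries. A sum without Twist1 was not taken. Of the listed markers 3, Lum, Dcn and Aldh1a2, had no counts. Vascular markers, for cells in which Gja5 and Gjc1 are known, summed to at most 1.57 CPM, with Cdh5 and Cldn5 at 0. Microglial markers summed to at most 3.22 CPM, with Csf1r, C1qa and C1qb at 0, and ependymal markers to 16.7 to 19.8 CPM in GFP libraries against 20.8 to 46.2 CPM in G392E-NS libraries, nearly all of it Foxj1. None of these 3 lists had a called member, with 1 tested in each. Of 10 progenitor markers, Prom1 rose by 2.52 (adjusted p = 0.00303) and Nes, the nestin gene, fell by 0.77 (adjusted p = 0.0480), a call lost in 5 of the 6 fits without a library. Their summed level overlapped, at 4342 to 5042 CPM in GFP libraries against 4279 to 5111 CPM in G392E-NS libraries.

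Genes with the most similar course over the 6 libraries were found by the root mean square difference in log2 CPM, each gene centred on its own mean, among 12568 tested genes with at least 1 CPM. For Gja1 they were Lonrf3 at 0.13, Igsf11, an adhesion protein gene, at 0.18 and the zinc transporter gene Slc39a12 at 0.18. For Gjb6 they were Rassf4 at 0.29, Enpp2, which encodes autotaxin, at 0.30 and the transcription factor gene Bcl11a at 0.31. For Gjb2, Efhd2, Bbox1 and Phkg1 all lay at 0.23. For Gjc1 the nearest were the potassium channel gene Kcnh2, the protocadherin gene Pcdhb17 and Ephb6, at 0.07 to 0.08, for Gjc3 Malat1, Mrc2 and Cenps, at 0.06 to 0.08, and for Gjd2 Zcchc18, Prkar2b and Ica1, at 0.07 to 0.08. The astrocyte connexins thus had no neighbour as close as those of the other 3 genes, whose levels varied less between libraries. With 6 libraries in 2 groups, many genes share such a course.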

How the data were processed

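RNA-seq of 6 libraries was analysed from a table of raw whole-number counts per Ensembl gene, deposited by the authors with 1 column per library. Per the submitters' processing notes the build was GRCm38 and the tools included HTSeq 0.6.1, TopHat2 2.0.12, DESeq2 1.4.5 and R 3.2.2, with no role stated. Neither the annotation release nor the strand setting is given in the sources used here.

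Groups and replicate numbers come from the sample titles. Symbols, positions and lengths come from GENCODE M21, which named 37693 of the 39179 genes. Genes were filtered with filterByExpr (13775 tested), scaled with TMM factors and tested with edgeR 4.0.16 (quasi-likelihood, no covariate) in R 4.3.3, adjusted by the Benjamini-Hochberg method over all genes tested, threshold 0.05. Each SE is the log2 fold change divided by the square root of F. CPM (depth-scaled counts) used TMM-scaled library sizes. Replicates differed far beyond sampling noise (chi-square per degree of freedom 8.02 to 56.4), so all were counted.

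The members, the gene lists and the rule for named genes were chosen with earlier results of these data known. The text names the 6 genes, other connexin genes with at least 10 counts, up to 4 called genes of each list in each direction or the nearest to the threshold, and the 3 genes most alike in course. Motifs were chosen after the data were seen.

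Among 14 alternatives, each of the 6 libraries was left out in turn, scaling was by total count, RLE or upper quartile, and the test was DESeq2 1.42.0 or limma-voom (limma 3.58.1). The filter was dropped or set to 1 CPM in 3 libraries, and a block for replicate number was added. Other gene lengths were tried for the pool. Floors of 3 counts cover counting error only. Some genes of these lists are counted but not reported here by name.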

Additional observations from a re-analysis of the deposited data

How the results depend on the processing

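All 6 connexins kept their direction in every setting that gave a value, and Gjb6 its call; Gjb2 was not tested with at least 1 CPM required in 3 libraries. DESeq2 called 1450 genes against 847, and the fit with no low-count filter 1579. In these 2 settings Gjc3 passed (log2 fold changes −0.70 and −0.72), and without the filter Gja1 did (1.33). Connexin partners called numbered 3 with DESeq2 and 2 with no low-count filter, where astrocyte ion and water handling genes numbered 10. With a library left out, all calls numbered 242 to 1373, with fewer samples in each such fit, and Gjc1 had −0.70 to −0.55. In the same fits, partners called numbered 0 to 2 and astrocyte ion and water handling genes 3 to 7. The share of Gja1 in the pool was 65.0% in GFP and 80.0% in G392E-NS libraries with the longest transcript as length, and 69.8% and 84.0% with counts not divided by length. Left-out libraries gave 39.4% to 49.3% and 57.1% to 70.2%. The medians of all genes shifted by at most 0.06 on the log2 scale between scalings.

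Replicate numbers did not pair the samples: deviations from the group means correlated at 0.03, −0.38 and −0.25 for numbers 1 to 3, and 1 of the 3 GFP libraries correlated best with its own number. With the replicate block 267 genes were called, 2 of them astrocyte ion and water handling genes, and 4 of the 8 astrocyte marker calls were lost. Gjc1 was not called with the replicate block (−0.62, adjusted p = 0.0844) and Gjb6 was (adjusted p = 0.0415).

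Depth limits Gjb2 and the 14 other connexin genes most, since 1 to 36 counts in a library carry large counting error.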
